A study of Mus musculus with 5480 samples.

Results

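Npnt, Inmt, Ces1d, Limch1, Slc7a10 and Gpm6b are 6 genes known as marks of alveolar fibroblasts, the fibroblasts of the gas-exchange region of the lung. They were taken by name from the 18072 genes of the count table, all 6 were found, and all 6 passed the filter on low counts in every fit. They were followed through single mesenchymal cells of mouse distal lung, each cell sequenced as its own library after flow sorting. The 5480 cells came from 10 mice, 1 female and 1 male in each of 5 groups. Of these groups, 4 breathed normal air and were taken on day 18.5 of gestation (E18.5) or on day 1, 7 or 21 after birth (P1, P7, P21), and the other was taken at P7 after hyperoxia, air enriched in oxygen. No genotype, strain or oxygen level is given in the sources used here. The cells carried 16 subtype names given by the authors, and each level below is a gene's counts per 1000000 reads of a mouse's cells of a subtype or class (CPM).

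Alveolar fibroblasts lie beside the alveolar epithelium, deposit matrix, store neutral lipid and signal to epithelial stem cells. The 6 genes have different tasks. Npnt encodes nephronectin, a secreted matrix protein bound by integrin alpha-8 beta-1. Limch1 encodes a LIM and calponin homology protein that activates non-muscle myosin. Ces1d encodes a carboxylesterase that hydrolyses triacylglycerol, and Inmt encodes indolethylamine N-methyltransferase, which methylates tryptamine and related amines. Slc7a10 encodes a transporter of small neutral amino acids that pairs with the heavy chain Slc3a2. Gpm6b encodes a membrane glycoprotein of the proteolipid protein family.

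The genes lie apart in the genome (GENCODE M21 on build GRCm38): Npnt at chr3:132881745-132950291 (minus strand), Inmt at chr6:55170626-55175043 (minus), Ces1d at chr8:93166068-93197838 (minus), Limch1 at chr5:66745827-67057158 (plus), Slc7a10 at chr7:35186385-35201114 (plus) and Gpm6b at chrX:166238911-166388988 (plus). Of Slc7a10, 377 exonic bases overlap Lrp3 on the opposite strand, and the strand setting of the counting is not given in the sources used here, so reads of the pair may be mixed there. Ces1d lies in a cluster of similar carboxylesterase genes, whose reads could be split or dropped by the counting. Exons of the other 5 genes overlapped no exon of another gene.

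Promoter windows of 250 bases before the RefSeq start (build GRCm38.p6, the start farthest upstream) were found for 5 of the 6 genes. The stretches for Inmt, Npnt and Limch1 are printed because Inmt had the largest change of the 6 and because the levels of Npnt and Limch1 lay on opposite sides of the air mice in hyperoxia. Each runs 5′ to 3′ on the gene's strand and ends before the GENCODE gene model, at chr6:55175044-55175240 (minus), chr3:132950292-132950541 (minus) and chr5:66745639-66745826 (plus). Capitals mark matches to the motif TATAAA.
Inmt: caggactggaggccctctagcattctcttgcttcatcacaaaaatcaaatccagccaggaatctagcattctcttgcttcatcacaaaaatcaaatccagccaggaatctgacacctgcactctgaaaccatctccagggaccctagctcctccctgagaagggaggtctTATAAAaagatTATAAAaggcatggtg
Npnt: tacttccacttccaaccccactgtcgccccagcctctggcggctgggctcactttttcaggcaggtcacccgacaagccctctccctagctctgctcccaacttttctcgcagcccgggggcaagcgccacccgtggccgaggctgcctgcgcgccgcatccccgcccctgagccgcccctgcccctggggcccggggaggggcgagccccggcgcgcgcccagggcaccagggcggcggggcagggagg
Limch1: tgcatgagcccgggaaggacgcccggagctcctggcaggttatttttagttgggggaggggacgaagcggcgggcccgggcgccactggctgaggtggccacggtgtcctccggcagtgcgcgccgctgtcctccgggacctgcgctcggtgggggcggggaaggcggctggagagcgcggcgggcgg
The motifs searched on both strands were TATAAA, the E-box CAGCTG and its general form CANNTG, the AP-1 site TGANTCA and the glucocorticoid receptor site ACANNNTGT. TATAAA was found in 12.4% of the 32851 promoter windows in the RefSeq table, CAGCTG in 13%, CANNTG in 66.2%, TGANTCA in 6.75% and ACANNNTGT in 5.84%. Inmt held TATAAA at 80 and 69 bases before its RefSeq start, which is 27 and 16 bases before its GENCODE start. Inmt also held CANNTG at 138 and 14 bases before the RefSeq start, the second of which is the CAGCTG match and lies past the printed stretch. The windows of Npnt, Limch1, Slc7a10 and Gpm6b held none of these letters. Their GC content was 74%, 74.4%, 69.6% and 63.2%, against 48% for Inmt and a median of 52.4% over all windows. These matches describe letters in the windows and were not tested against expression.

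Mice gave 311 to 633 cells and 294154721 to 671766116 reads, with a median of 774305 reads per cell. The labels mention no molecular identifiers, so copies of a molecule count separately, and limits from counts cover counting error only. Each hyperoxia mouse had its own sequencing run, so hyperoxia and run cannot be told apart. Within each sex the E18.5 and P1 mice shared a run, and the later air ages shared a run in males only. The classes used below are alveolar fibroblasts (early and later subtype, 1868 cells), adventitial fibroblasts (early and later) and all fibroblasts (7 subtypes). Alveolar libraries held 14 and 24 cells at E18.5 and 74 to 393 cells in the other 8 mice. Of 10 other alveolar fibroblast markers, 6 were highest in fibroblast precursors, 1 in the early alveolar subtype and 3 in the alveolar subtype, while all 10 adventitial markers were highest in the adventitial subtype. Replicates here are the 2 mice of a group.

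Of the 6 genes, 5 had their highest level in alveolar fibroblasts, but Inmt, Npnt and Limch1 were also present in other cells and Gpm6b was present nearly everywhere. Because the authors' subtypes were derived from these same cells, the levels are a description with no test. In alveolar fibroblasts at P21 (female, then male), Npnt stood at 3785 and 2707 CPM and Inmt at 16115 and 21515 CPM. Ces1d stood at 1044 and 1201 CPM, Slc7a10 at 518 and 742 CPM, and Gpm6b at 385 and 613 CPM. These 5 genes had their highest mean of all subtypes there, and none of them overlapped the subtype ranked next. For Gpm6b the 2 subtypes nearly met, with 384.8 CPM in the lower alveolar library and 383.9 CPM in the highest early alveolar one. Limch1, at 5516 and 5841 CPM, was exceeded by the 7148 CPM of the male hyperoxic fibroblasts, a subtype from 1 mouse.

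**Figure D1:**
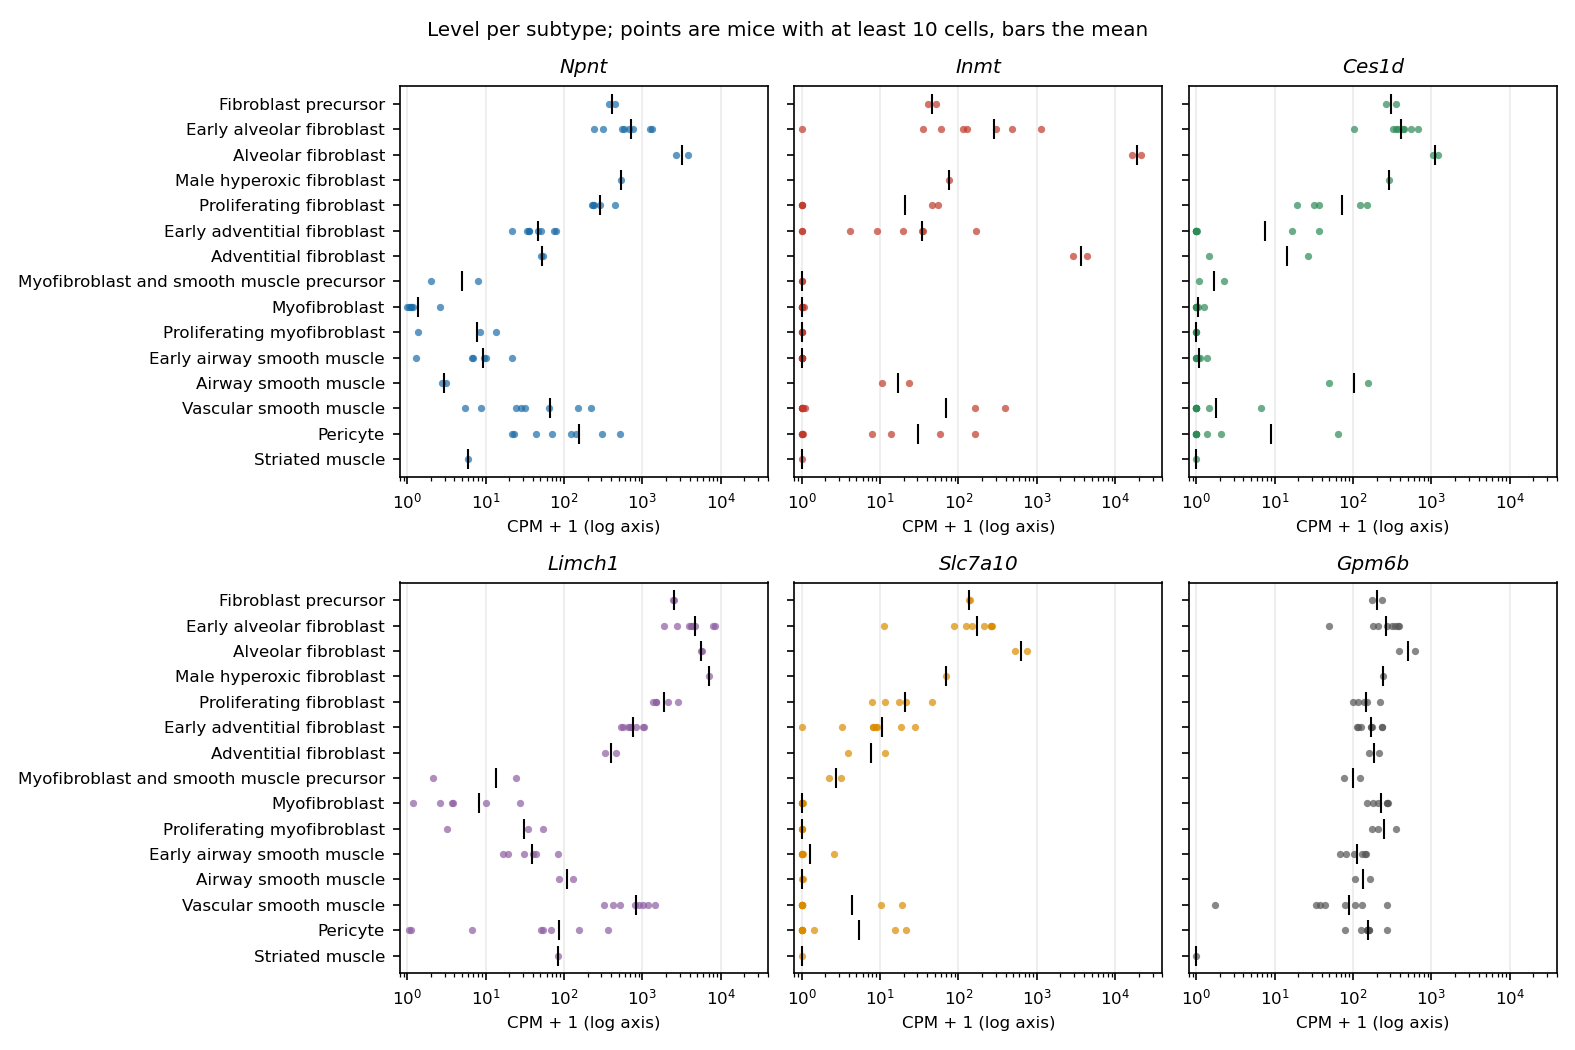
Level of each gene (CPM + 1, log axis) in 15 of the 16 subtypes; each point is a mouse with at least 10 cells of the subtype and each bar the mean over mice. Inmt, Ces1d, Slc7a10, Npnt and Limch1 spread over orders of magnitude between alveolar fibroblasts and myofibroblasts. The mean of Gpm6b lies between 87.8 and 499 CPM in 14 subtypes and at 0 in striated muscle.

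Npnt, the matrix ligand, ranked after alveolar fibroblasts in early alveolar fibroblasts (8 mice, 243 to 1341 CPM, median 634), male hyperoxic fibroblasts (527 CPM) and fibroblast precursors (452 and 377 CPM). Proliferating fibroblasts followed (5 mice, 224 to 443 CPM). Among cells that are not fibroblasts, pericytes, the cells that wrap capillaries, carried it at 20.8 to 524 CPM. Their highest values were the P21 mice, at 524 and 309 CPM, and 82.9% and 66.7% of those pericytes held a read. Adventitial fibroblasts at P21 held 52.4 and 50.3 CPM, and myofibroblasts, the contractile cells of the growing septum, at most 1.65 CPM. From proliferating fibroblasts down to the adventitial subtypes, each subtype in this order overlapped the one above it.

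Limch1, the myosin activator, was high in fibroblasts other than the alveolar ones too. Early alveolar fibroblasts spanned 1900.5 to 8439 CPM, fibroblast precursors held 2472 and 2520.0 CPM, and proliferating fibroblasts 1384 to 2822 CPM. Vascular smooth muscle, at 325 to 1433 CPM, overlapped the early adventitial fibroblasts, at 537 to 1063 CPM. Airway smooth muscle at P21 held 85.0 and 131 CPM and myofibroblasts 0.179 to 26.9 CPM. The smooth muscles of airway and vessel therefore did not overlap for Limch1.

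Ces1d and Slc7a10, the lipase and the amino acid transporter, were the most restricted. Fibroblast precursors held Ces1d at 259.6 and 351 CPM and Slc7a10 at 135 and 139 CPM, and the male hyperoxic fibroblasts 289.6 and 68.9 CPM. Early adventitial fibroblasts held 0 to 35.6 CPM of Ces1d and 0 to 27.2 CPM of Slc7a10. Myofibroblasts held at most 0.263 CPM of Ces1d and 0.0301 CPM of Slc7a10. Pericytes of 8 mice ranged from 0 to 63.5 CPM of Ces1d (median 0) and from 0 to 20.3 CPM of Slc7a10 (median 0.00818). Ces1d had an exception among contractile cells: airway smooth muscle at P21 held 47.8 and 154 CPM, with a read in 20.7% and 20% of its cells, while Slc7a10 was at 0.0392 and 0 CPM in the same cells.

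Inmt, the methyltransferase, was shared by both mature fibroblast types. Adventitial fibroblasts at P21 held 2915 and 4336.5 CPM, below both alveolar libraries and above every early alveolar library, the highest of which was the female at P1 with 1120.0 CPM. Vascular smooth muscle held 163 and 391.5 CPM at P21 and at most 0.112 CPM in the other 6 mice. Pericytes ranged from 0 to 159 CPM, with the highest value in the female at P1. Early airway smooth muscle, proliferating myofibroblasts, striated muscle and the precursors of myofibroblasts and smooth muscle held no read.

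Gpm6b, the proteolipid family member, was highest in alveolar fibroblasts but not restricted to them. Proliferating myofibroblasts (173 to 356 CPM), myofibroblasts (152 to 278 CPM) and early alveolar fibroblasts (48.7 to 384 CPM) overlapped. A read was found in 37.5% to 88.9% of myofibroblasts, while the other 5 genes reached at most 26.7% there (Limch1 in the male hyperoxia mouse). Among genes outside the 6, the nearest neighbours of Gpm6b by profile were Akirin2, Vps26c and Ckap4 (Pearson r 0.74 to 0.77). With the other 5 genes the Pearson r of Gpm6b over the 64 libraries of a mouse and subtype was 0.09 to 0.28, while those 5 correlated at 0.55 to 0.83 with each other. These r are descriptions over libraries that share mice, runs and depth.

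Outside the 6 genes, those most like their mean profile over the same 64 libraries, among 14019 genes compared, were Adrb3 (Pearson r 0.87), Upk1b (0.86), C7 (0.86), Ppp4r4 (0.86) and Fgfr3 (0.85). Npnt was most like Enpep, Hsd11b1 and Tcf21, with r from 0.79 to 0.81. Inmt was most like C7, Lrat and Clec3b, with r from 0.76 to 0.80, and Clec3b is also on the adventitial marker list. Ces1d was most like Upk1b, Cass4 and Prom1 (0.83 to 0.87), Limch1 most like Slc1a3, Vcam1 and Ldb2 (0.83 to 0.87), and Slc7a10 most like Adrb3, Upk1b and Phex (0.86 to 0.89). The 6 genes were left out of these lists, and Ces1d had a higher r with Slc7a10 (0.834) than with Prom1 (0.828).

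The number of the 6 genes with a read was counted in each cell, and cells were pooled over mice. Whether the genes occur together more often than their separate shares give was not tested. With every cell thinned to 100000 reads, which left out 168 shallower cells, alveolar fibroblasts of the later subtype had a read for a mean of 4.86 of the 6 genes, early alveolar fibroblasts for 3.71 and fibroblast precursors for 3.31. Adventitial fibroblasts had 2.11 and early adventitial fibroblasts 1.48, and myofibroblasts 0.60. At least 4 of the genes were found in 89.7% of the later alveolar cells, 58.3% of the early alveolar cells and 44.4% of the precursors. By mouse, the later alveolar share at P21 was 95.5% in the female (176 cells) and 74.6% in the male (67 cells). The early alveolar share was 4.76% in the male at E18.5 (21 cells) and 50% to 63.5% in the P1 and P7 mice. In myofibroblasts no cell had 3 or more (0 of 500 cells pooled over mice, and 0% in each mouse with at least 10 such cells).

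**Figure D2:**
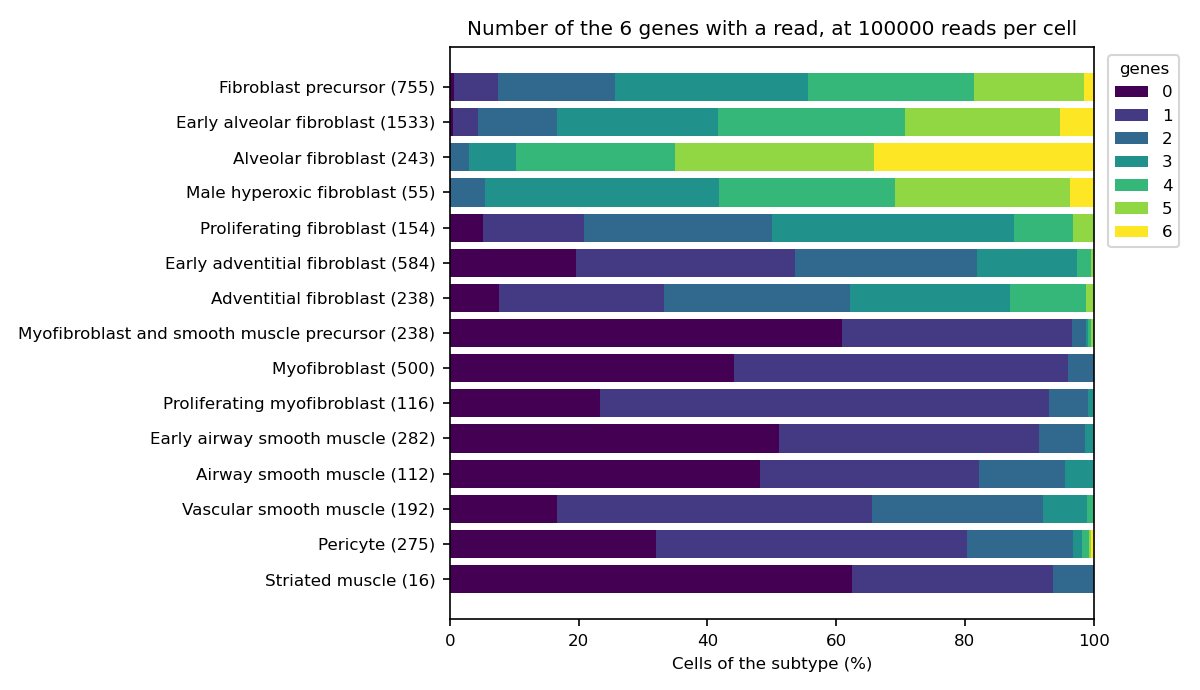
Share of cells of each subtype (horizontal axis, %) by how many of the 6 genes had a read at 100000 reads per cell; numbers in brackets are cells over all mice. All 6 genes were found in 83 of 243 later alveolar fibroblasts and in none of the 500 myofibroblasts.

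The next question was how the genes change with age in alveolar fibroblasts. At E18.5 (female, then male) Npnt stood at 243 and 317 CPM, at P1 at 681 and 587, at P7 at 1244 and 1341, and at P21 at 3784 and 2661 CPM. Both mice of each age lay above both mice of the age before, as they did for Gpm6b. Inmt began at 128 and 0 CPM in the E18.5 mice, stood at 1120.0 and 486 CPM by P1 and 112 and 302 CPM by P7, and had 16106 and 21188 CPM at P21. It was thus high at P1, lower at P7 and highest at P21. The 128 CPM at E18.5 came from 1 of 14 cells. The 0 of the male allows up to 0.221 CPM by counting error alone. The male library was also small, so a level carried by so few cells could be missed in it.

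Limch1 began at 2757 and 1900.5 CPM in the E18.5 mice, stood at 3884 and 4644 CPM by P1 and 4336 and 4141 CPM by P7, and had 5514 and 5763 CPM at P21. Its P1 and P7 mice overlapped. Ces1d began at 325 and 101 CPM, stood at 446 and 665 CPM by P1 and 369.6 and 435 CPM by P7, and had 1045 and 1184 CPM at P21. Slc7a10 stood at 85.5 and 10.1 CPM at E18.5. It then had 259.7 and 256 CPM at P1, 208 and 268 at P7, and 519 and 742 CPM at P21. Ces1d and Slc7a10 were each highest in the P21 mice, and at P7 Ces1d was below both P1 mice while Slc7a10 overlapped them. Gpm6b began at 178 and 48.7 CPM, stood at 209.5 and 270.3 CPM by P1 and 372 and 311 CPM by P7, and had 385 and 613 CPM at P21.

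**Figure D3:**
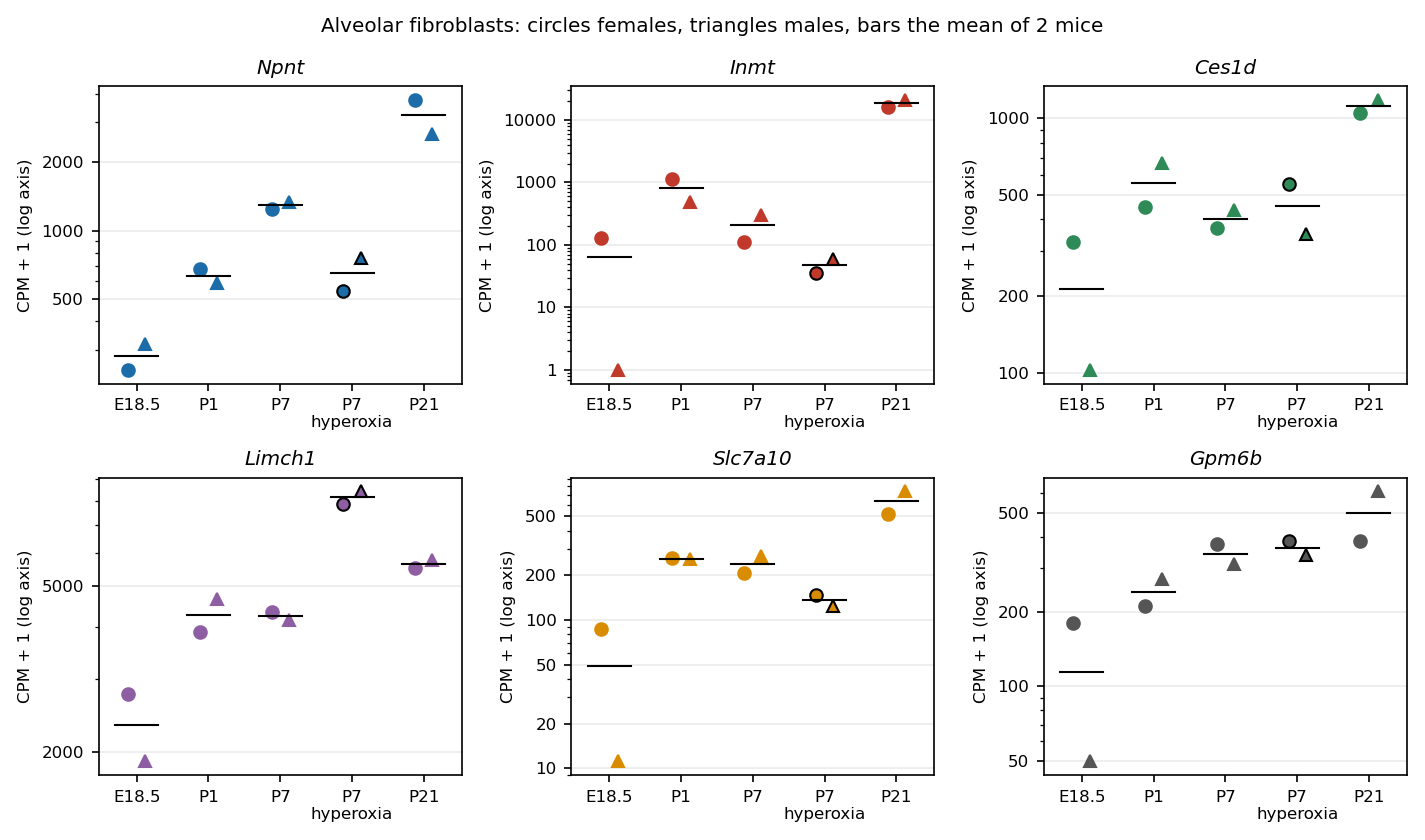
Level of each gene (CPM + 1, log axis) in alveolar fibroblasts of each mouse by age and treatment; circles are females, triangles males, bars the mean of 2 mice, and hyperoxia points have a black edge. Every gene is highest at P21 among the air groups, and Limch1 is highest of all groups in hyperoxia.

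Per kilobase of annotated exons, which allows genes to be compared, the order of levels changed with age. At P7 in air Limch1 was highest with 413 ± 13.4 CPM per kb (SD, n = 2), then Npnt with 257 ± 13.7 and Ces1d with 169.7 ± 19.4. Slc7a10 had 113 ± 20.0 and Gpm6b 61.0 ± 7.79. The means of Ces1d, Slc7a10 and Gpm6b lay within the SD of Inmt (129.6 ± 84.2), which is a description and not a test. At P21 Inmt led with 11655 ± 2246 CPM per kb, followed by Npnt (641 ± 158), Limch1 (549 ± 17.2), Ces1d (470.3 ± 41.5), Slc7a10 (299 ± 74.6) and Gpm6b (89.0 ± 28.8). Npnt and Limch1 did not differ beyond their spread there.

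From E18.5 to P1 all 6 genes were higher in both P1 mice than in both E18.5 mice in alveolar fibroblasts, as were 48.5% of the 15670 genes tested. The median log2 change of the 6 was 1.34, against 1.35 over all genes, so relative to that shift their median did not move. None passed the test across all genes (edgeR quasi-likelihood, adjusted p under 0.05), while 966 genes, or 6.16%, did. Unadjusted p was under 0.05 for 4 of the 6 (Npnt, Ces1d, Limch1 and Slc7a10) and for 21% of all genes. DESeq2 called 1 of the 6 (Slc7a10). In every comparison DESeq2 called more genes in all than edgeR did, with the counts given in the closing section. Its member calls are therefore not to be read against the edgeR shares. With 2 mice a group, a gene that did not pass is not shown to be unchanged. Limch1 came closest (log2 change 0.85, SE 0.217, adjusted p 0.0595). In the female, sequenced in the same run at both ages, the folds ran from 1.18 (Gpm6b) to 8.73 (Inmt), and in the male from 1.85 (Npnt) to 25.4 (Slc7a10), leaving out Inmt, which was at 0.

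The E18.5 values rest on 14 and 24 cells. The female E18.5 alveolar library also held 1082 summed CPM of 10 epithelial markers and 426 of 8 immune markers, against 16.8 to 134 and 9.36 to 57.5 in the other 9. Of the epithelial list Epcam, Sftpa1, Nkx2-1, Krt8, Krt18 and Hopx were at 0 in it while Sftpc stood at 1001 CPM, and of the immune list Ptprc, Cd52 and Cd74 were at 0. The part of such cells in the result was not tested. Without that mouse a single E18.5 library is left, so calls of that fit are not read as a result about the 6 genes. Over the fits without 1 mouse, the log2 change ran from 1.66 to 4.57 for Slc7a10, 0.48 to 2.19 for Gpm6b and 0.86 to 2.31 for Ces1d. The ranges were 0.81 to 1.54 for Npnt, 0.71 to 1.03 for Limch1 and 2.68 to 20.4 for Inmt, whose male E18.5 library had no read.

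In all fibroblasts pooled, Inmt rose from E18.5 to P1. Its level was 35.4 and 42.1 CPM in the E18.5 mice and 811 and 404 CPM in the P1 mice, which did not overlap. The log2 change was 4.06 (SE 0.526, adjusted p 0.00864), with a rise in both sexes. It was the 1 member called, against 0.998% of the 16831 genes tested, and 3 of the 6 had an unadjusted p under 0.05, against 10.2%. The call was lost without the female E18.5 mouse (adjusted p 0.16), the male E18.5 mouse (0.119) or the female P1 mouse (0.0535), and the adjusted p over 18 alternatives ran from 6.53e-14 to 0.16. The pooled cells change in kind: 425 of 500 and 335 of 416 were fibroblast precursors at E18.5, and 362 of 509 and 393 of 467 were early alveolar at P1. An Inmt read was found in 4.75% and 4.61% of the E18.5 cells and 30.0% and 30.7% of the P1 cells at 100000 reads per cell (unthinned 5.2% and 5.05%, and 30.5% and 30.6%). Cells with a read held a median of 447 and 398 CPM at E18.5 and 1392 and 842 CPM at P1. Neither the share nor the level per positive cell overlapped. The other 5 genes had log2 changes of 0.30 to 0.84 and none passed.

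From P1 to P7 no gene of the 15670 passed in alveolar fibroblasts (0%), and so no member did. Unadjusted p was under 0.05 for Npnt alone of the 6 and for 2.36% of all genes, and DESeq2 called none of the 6. Npnt was higher in both sexes, with folds of 1.83 and 2.28 (log2 change 0.99, SE 0.330, adjusted p 1). Inmt was 0.1 times its P1 level in the female and 0.622 times in the male, whose ages shared a run. With edgeR its log2 change in alveolar fibroblasts was -1.80 (SE 1.88, unadjusted p 0.365). By plate of cells, the male held 117.5 and 509 CPM at P7 and 460 and 456 CPM at P1, which overlapped. In all fibroblasts the log2 change of Inmt was -2.06 (SE 0.493, unadjusted p 0.00195, adjusted p 0.375), and no gene passed with edgeR (0%). DESeq2 called Inmt among many other genes. There 2 of the 6 (Inmt and Npnt) had an unadjusted p under 0.05, against 7.4% of genes. In alveolar fibroblasts the groups did not overlap for 2 members that were higher at P7 (Npnt and Gpm6b; 19.6% of all genes) and 2 that were lower (Inmt and Ces1d; 21.2%).

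The lower level of Inmt at P7 than at P1 went with a lower share of cells. At 100000 reads per cell, 40.6% and 35.7% of alveolar fibroblasts had an Inmt read at P1, 9.05% and 9.42% at P7 and 100% and 97.1% at P21 (unthinned 40.9% and 35.4%, 9.17% and 10.9%, and 100% and 95.9%). Cells with a read held a median of 1378 and 901 CPM at P1, 854 and 1130.1 at P7, and 13446 and 18068 CPM at P21. P1 and P7 overlapped in this level per positive cell and did not overlap in the share. In myofibroblasts, at similar or greater depth (medians of 536632 to 1069500 reads against 489023 to 996898 in alveolar fibroblasts of the same 6 mice), 0% to 4.44% of cells had a read.

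**Figure D4:**
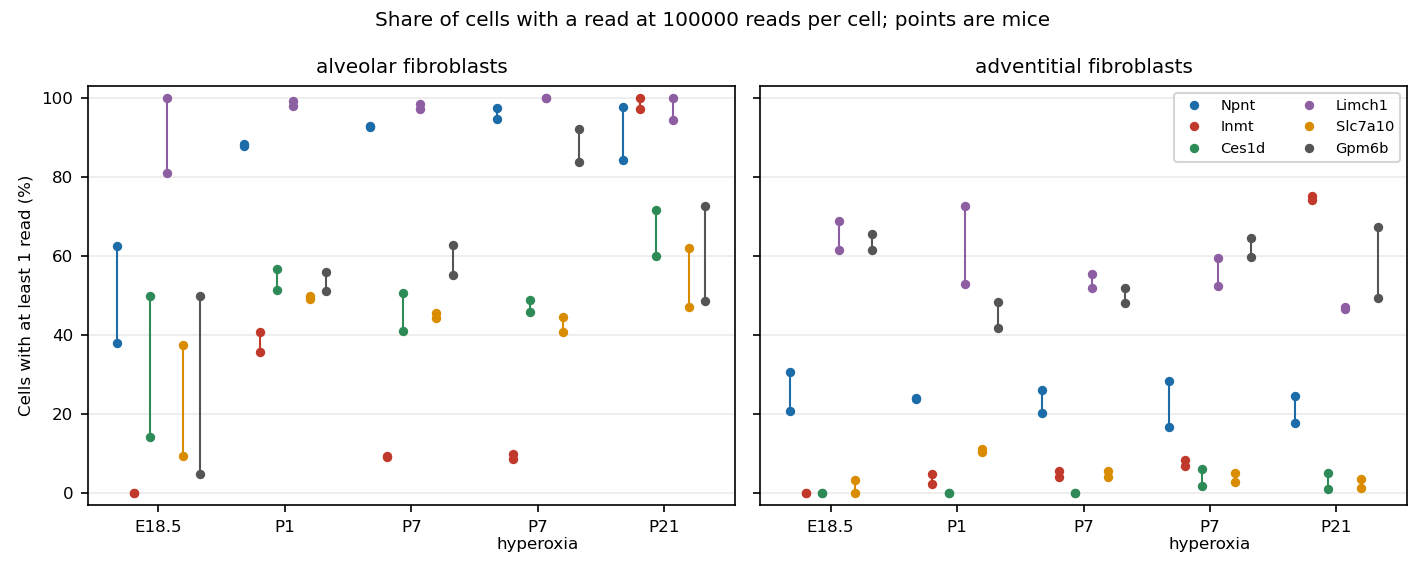
Share of alveolar (left) and adventitial (right) fibroblasts with at least 1 read of each gene (vertical axis, %) by age and treatment, with every cell thinned to 100000 reads; each point is a mouse and a line joins the 2 mice of a group. Inmt falls to 9.05% and 9.42% of alveolar cells at P7 and reaches 100% and 97.1% at P21.

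From P7 to P21 all 6 genes were higher in both P21 mice than in both P7 mice in alveolar fibroblasts, against 15.8% of all genes. The median log2 change of the 6 was 1.69, against -0.04 over all genes. Within the males, sequenced in 1 run, the folds were 70.0 for Inmt, 2.77 for Slc7a10, 2.72 for Ces1d, 1.98 for Npnt, 1.97 for Gpm6b and 1.39 for Limch1. None of the 6 passed in the fit of all 10 mice, in which 0.0702% of genes passed (11 of 15670). Unadjusted p was under 0.05 for Npnt, Inmt, Ces1d and Limch1 and for 7.13% of all genes. DESeq2, which called many more genes than edgeR, called 2 of the 6 (Npnt and Inmt). At P7 the subtype is the early and at P21 almost only the later alveolar one, so the step also crosses the authors' subtype border.

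Inmt showed the largest change of the 6. The log2 change was 6.76 (SE 2.25, adjusted p 0.593) in the fit of all mice, in which its spread includes the male E18.5 library with no read. Without both E18.5 mice, an alternative chosen after seeing the data, the log2 change was 6.87 (SE 0.764, adjusted p 0.00833), with 171 genes called. Without only the female or only the male of E18.5 the adjusted p was 0.00796 and 0.00756, and the range over 19 alternatives was 0.0027 to 1. The other 5 genes did not pass without both E18.5 mice, with adjusted p of 0.0699 for Slc7a10, 0.0729 for Npnt, 0.0847 for Ces1d, 0.301 for Gpm6b and 0.363 for Limch1.

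In all fibroblasts pooled, Inmt rose from 87.1 and 212 CPM at P7 to 9308 and 10569 CPM at P21. The log2 change was 6.32 (SE 0.584, adjusted p 0.000766), and the fold was 107 in the female and 49.8 in the male. In that comparison 5.1% of genes passed, and Inmt was the 1 member of 6, while 4 of the 6 had an unadjusted p under 0.05, against 23.2% of genes. It passed under each of its 18 alternatives, with adjusted p up to 0.013. Slc7a10 (log2 change 0.93, SE 0.267, adjusted p 0.0755), Ces1d (1.02, SE 0.345, adjusted p 0.117) and Npnt (0.85, SE 0.303, adjusted p 0.135) did not pass, nor did Limch1 (-0.03, SE 0.288) and Gpm6b (0.29, SE 0.264). DESeq2 called Inmt, Slc7a10 and Ces1d. It called many more genes there than edgeR, with the count in the closing section, so these calls are not read as a result about the members.

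**Figure D5:**
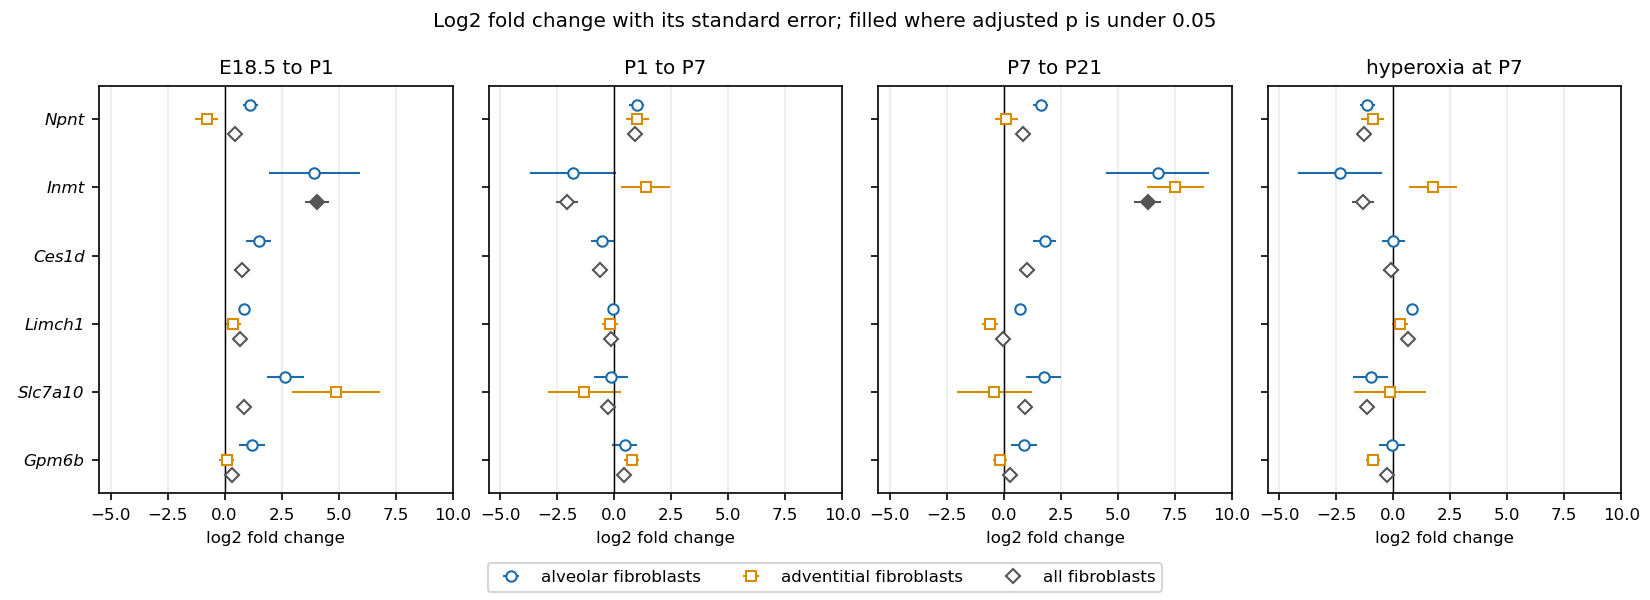
Log2 fold change of each gene (horizontal axis) with its standard error at each step, in alveolar, adventitial and all fibroblasts; filled symbols have adjusted p under 0.05, and changes against groups with 3 reads or fewer are left out. The filled symbols are Inmt in all fibroblasts at E18.5 to P1 (4.06) and P7 to P21 (6.32).

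Under hyperoxia the genes did not move as a group. Npnt stood at 542 and 758 CPM in alveolar fibroblasts of the hyperoxia mice against 1244 and 1341 in air, below both (log2 change -1.15, SE 0.331, unadjusted p 0.00871, adjusted p 1). Limch1 went the other way, at 7851 and 8439 CPM against 4336 and 4141 in air, above every other mouse (log2 change 0.80, SE 0.217, unadjusted p 0.00611, adjusted p 1). Inmt stood at 34.8 and 59.0 CPM against 112 and 302, and Slc7a10 at 147 and 122 CPM against 208 and 268, both without overlap. Ces1d (549 and 349 CPM against 369.6 and 435) and Gpm6b (384 and 339 against 372 and 311) overlapped.

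None of the 6 passed in alveolar fibroblasts, and no gene of 15670 did (0%; edgeR). Unadjusted p was under 0.05 for 2 of the 6 (Npnt and Limch1) and for 2.68% of all genes, and DESeq2 called none of the 6. Genes without overlap that were lower in hyperoxia made up 16.2% of all genes and 3 of the 6, and those that were higher 27.2% and 1 of the 6. In all fibroblasts 0.00594% of genes passed (1 of 16831) and none of the 6, with unadjusted p under 0.05 for Npnt (log2 change -1.29), Slc7a10 (-1.13), Inmt (-1.32) and Limch1 (0.65) and for 11.2% of all genes. DESeq2, which called many more genes than edgeR there, called Npnt (adjusted p 0.00836) and Slc7a10 (0.0211). Over the alternatives their adjusted p ran up to 0.78 and 0.905. Hyperoxia and sequencing run cannot be told apart, and the hyperoxia mice also had more genes per cell (medians of 4268 and 5545 against 2988 and 2963 in air), whose part in these values was not tested.

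Gpm6b had a read in a larger share of cells in hyperoxia, although its level overlapped. At 100000 reads per cell it was found in 83.7% and 92.1% of alveolar fibroblasts in hyperoxia and in 62.9% and 55.1% in air (unthinned 84.4% and 93.4% against 67.9% and 62.6%). A similar difference was seen in myofibroblasts, with a read in 81.0% and 88.9% of cells in hyperoxia against 56.1% and 51.6% in air, unthinned. The thinned shares of Inmt (8.61% and 9.96% against 9.05% and 9.42%) and Ces1d (45.9% and 49.0% against 41.0% and 50.7%) overlapped, and those of Npnt were 94.7% and 97.5% against 92.9% and 92.8%, although its level was lower. The greater number of genes per cell in the hyperoxia mice, given above, moves with the share of Gpm6b, and its part in it was not tested.

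Adventitial fibroblasts, the fibroblasts around vessels and airways, served as the contrast. Inmt stood at 7.67 and 33.8 CPM there at P7 and at 2857 and 4336 CPM at P21, without overlap (log2 change 7.53, SE 1.23, unadjusted p 0.000158, adjusted p 0.0685). None of the 6 passed and 0.124% of the 15289 genes did; unadjusted p was under 0.05 for 2 of the 6 (Inmt and Ces1d) and for 10.2% of genes. DESeq2, which called many more genes than edgeR, called 2 of the 6. Inmt passed under 9 of 18 alternatives, among them leaving out either E18.5 mouse or either P1 mouse, with adjusted p from 1.55e-05 to 0.321. A read was found in 74.2% and 75.3% of thinned adventitial cells at P21 against 4% and 5.56% at P7.

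In adventitial fibroblasts the other 5 genes differed in level and in direction. Npnt held 20.8 to 77.6 CPM over the 10 mice and Slc7a10 0 to 27.2 CPM. Ces1d was at 0 CPM in both E18.5 mice, both P1 mice and the female at P7 and at 1 read in the male at P7, then at 24.9 and 0.474 CPM at P21 and 15.9 and 35.6 CPM in hyperoxia, in 1.16% to 6.9% of cells. Limch1 stood at 662 and 646 CPM at P7, 438 and 331 at P21 and 1011 and 819 in hyperoxia, lower at P21 and higher in hyperoxia than both air mice at P7. Neither difference passed (adjusted p 0.587 and 0.854). Gpm6b stood at 171 and 127 CPM at P1, 224 and 233 at P7, 210 and 161 at P21 and 171 and 116 in hyperoxia. Both P7 mice lay above both mice of each of these other groups, with none of the differences passing (P1 to P7 log2 change 0.76, SE 0.325, unadjusted p 0.0396, adjusted p 0.829; hyperoxia -0.89, SE 0.325, unadjusted p 0.0208, adjusted p 0.621). Inmt in hyperoxia was 165 and 33.7 CPM against 7.67 and 33.8, which overlapped.

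The adventitial libraries differed in markers of mesothelium, the lining of the lung surface. Summed over 6 markers they stood at 645 and 806 CPM in hyperoxia, led by Msln at 432 and 422 CPM and with none of the 6 at 0. In air they stood at 271 and 0.081 CPM at P7, 0.664 and 0.00967 CPM at P21 and 2.51 to 290.1 CPM in the 4 younger mice. Msln was at 0 in the male at P7 and in both P21 mice. Their part in the adventitial values of hyperoxia and of P21 was not tested.

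From E18.5 to P1 and from P1 to P7 none of the 6 passed in adventitial fibroblasts, where 0.17% and 0% of genes did, nor in hyperoxia (0%). Unadjusted p was under 0.05 for 2 (Inmt and Slc7a10), 1 (Gpm6b) and 2 (Ces1d and Gpm6b) of the 6, against 9.23%, 5.6% and 8.01% of genes. DESeq2, which called many more genes than edgeR each time, called 2, 0 and 1 of the 6. Inmt was at 0 in both E18.5 mice and at 18.9 and 3.13 CPM at P1, where the reads came from 2.9% and 5.97% of the cells. The E18.5 mice had 26 and 29 thinned adventitial cells, too few to tell absence from shares as low as those at P1. A minimum fold is therefore not given.

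Whether alveolar and adventitial fibroblasts differed in their change was tested in a model of both classes that kept each mouse together, and no gene of 16455 passed at P7 to P21 or under hyperoxia (0% and 0%; edgeR). From P7 to P21 the change of Limch1 was larger in alveolar fibroblasts by 1.29 (log2, SE 0.30, unadjusted p 0.00215, adjusted p 0.632) and that of Npnt by 1.47 (SE 0.610, unadjusted p 0.0400), while the median of all genes was -0.35. Inmt differed by -1.03 (SE 0.854), so a difference in its rise between the types was not detectable, and the sign turned with equal weight per cell (0.13). Under hyperoxia Inmt differed by -4.21 (SE 0.933, unadjusted p 0.00212, adjusted p 1). That value was -2.75 without the female hyperoxia mouse, whose adventitial Inmt was the 165 CPM, -5.68 without the male and -1.77 with equal weight per cell, and it rests on the adventitial libraries with mesothelial markers. Unadjusted p was under 0.05 for 3 and 2 of the 6 (Ces1d, at 1 read in the adventitial P7 mice, is among them both times), against 4.18% and 2.23% of genes. DESeq2, which called many more genes than edgeR both times, called 0 and 1 of the 6.

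Partners and relatives of the 6 genes were read in the same fits. Of 25 such genes, 19 were in the table and 18 entered the alveolar fit, and 2 passed from E18.5 to P1 (Pnpla2 and Nnmt, both at or near 0 at E18.5), against 6.16% of all genes. None passed at P1 to P7, P7 to P21 or under hyperoxia, where 0%, 0.0702% and 0% of all genes did. Their median log2 change from P7 to P21 was 0.22, against -0.04 over all genes. Itga8, the receptor subunit for nephronectin, stood at 209 and 291 CPM at P7, 605 and 930 at P21 and 138 and 162 in hyperoxia, the same order as Npnt (adjusted p 0.418 and 1). Myl9, a light chain of the myosin that Limch1 acts on, stood at 685 and 981 CPM at P7 and 102 and 179 at P21, the reverse of Limch1 (adjusted p 0.259), and in all fibroblasts it fell (log2 change -1.41, SE 0.327, adjusted p 0.0395), the 1 of 19 relatives called there, against 5.1% of all genes. Slc3a2, the partner of Slc7a10, stood at 197 and 249.7 CPM at P7 and 238 and 136 at P21, which overlapped. Among the relatives of Ces1d only Ces1f was in the table, at no more than 2.9 CPM in alveolar fibroblasts at P7 and P21.

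The other 10 alveolar fibroblast markers gave a mixed picture. From P7 to P21 their median log2 change in alveolar fibroblasts was 0.44, 5 were higher in both P21 mice (15.8% of all genes) and 2 lower (29%), and none passed (0.0702%). In all fibroblasts Scn7a, a sodium channel gene, was the 1 of the 10 that passed, against 5.1% of all genes (log2 change 2.19, SE 0.403, adjusted p 0.0161). Tcf21, a transcription factor of lung mesenchyme, stood at 1256 and 364 CPM at P7 and 531 and 216 at P21. G0s2, an inhibitor of triglyceride lipase, stood at 738 and 849 CPM at P7 and 1289.8 and 1483 at P21. From E18.5 to P1 G0s2 fell from 2520.5 and 2862 to 927 and 863 CPM (log2 change -1.62, SE 0.282, adjusted p 0.0301), the 1 of the 10 called at that step, against 6.16% of all genes.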

How the data were processed

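Raw read counts per gene and cell were deposited by the authors, and STAR 2.5.2b and HTSeq 0.10 are named for alignment and counting software per the submitters' processing notes. Those notes name a build, GRCh38, that is not a mouse build. The strand setting is not given in the sources used here. Counts were summed per mouse and subtype or class, since the mouse is the replicate. Each class was fitted over all genes and all 10 mice with edgeR 4.0.16 (TMM, filterByExpr, quasi-likelihood test, terms for sex and group, R 4.3.3), with 4 residual degrees of freedom, and p-values were Benjamini-Hochberg adjusted over all genes. The difference between classes used 20 libraries with the mouse as a term. CPM in the text are per 1000000 total reads. Scripts were tested on simulated data, on which the alveolar fits called few even of the largest changes put in. DESeq2 1.42.0 and limma 3.58.1 on equally weighted cells were alternatives. All 6 genes are described, and likeness is the Pearson r of log2(CPM + 1) over libraries of at least 10 cells. The 5 genes most like the mean and the 3 most like each member are named, with the 6 members left out of the ranking. Members, lists and rules were chosen with earlier results of these data known. The mice are separate animals per the labels, and nothing says whether they share litters. Of the cells, 71 came from another sort or run.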

Additional observations from a re-analysis of the deposited data

How the results depend on the processing

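With 2 mice a group, 4 residual degrees of freedom and E18.5 alveolar libraries of 14 and 24 cells, calls move with the setting, and for each change below the cause was not tested. No paired analysis was possible by animal or litter because every mouse belongs to 1 group and the labels name no shared litter. Sex, which matches 1 mouse of each group with 1 of every other, is a term of the fit, also in the fit of only the 4 mice compared, and is dropped in the fit with no sex term. Of 77 results for single genes, 58 kept their direction under every alternative run. In the sentences that follow, steps are E18.5 to P1, P1 to P7, P7 to P21 and hyperoxia.

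With DESeq2 the genes called were 3630, 215, 1070 and 241 in alveolar, 778, 328, 852 and 387 in adventitial and 932, 530, 3165 and 661 in all fibroblasts, and 501 and 138 for the difference between classes (P7 to P21, hyperoxia). Against these stand 966, 0, 11 and 0, then 26, 0, 19 and 0, then 168, 0, 859 and 1, then 0 and 0 with edgeR. The members called with DESeq2 were 1 and 2 in alveolar (E18.5 to P1 and P7 to P21), 2, 2 and 1 in adventitial (the same and hyperoxia), 1, 3 and 2 in all fibroblasts (the later steps) and 1 for the hyperoxia difference. With equal weight per cell 2380 and 109 genes were called in alveolar (E18.5 to P1 and P7 to P21), 77 and 34 in adventitial and 2069 and 137 in all fibroblasts (P7 to P21 and hyperoxia) and 8 for the hyperoxia difference, with members called 1 (alveolar, E18.5 to P1), 1 and 3 (adventitial and all, P7 to P21). In the fit of only the 4 mice compared, 11, 3, 127 and 7 genes were called in alveolar, 285, 3, 476 and 75 in all fibroblasts, 0 in adventitial (E18.5 to P1) and 10 for the P7 to P21 difference, with 1 member in alveolar from E18.5 to P1 and 1 from P7 to P21, and 1 in adventitial from P7 to P21. With no sex term 1489 and 26 genes were called in alveolar (E18.5 to P1 and P7 to P21), 42 in adventitial (P7 to P21) and 0 in all fibroblasts (hyperoxia), with 1 member in alveolar (E18.5 to P1) and 1 in adventitial (P7 to P21). With no filter on low counts 45 and 50 genes and 1 and 1 members were called in adventitial (E18.5 to P1 and P7 to P21), and with the mesenchymal sort and main run alone 15 and 5 genes. Scaling by total reads, chosen after seeing the data, called 17 genes in all fibroblasts (hyperoxia) and 1 for the P7 to P21 difference. Without both E18.5 mice, also chosen after seeing the data, 171 genes and 1 member were called in alveolar (P7 to P21) and 49 genes for the P7 to P21 difference.

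Leaving out each mouse in turn gave 0 (without a P21 mouse) to 4846 (without the female E18.5) genes in alveolar from E18.5 to P1 (2284 without the male E18.5) and 0 to 163 (without the female E18.5, 157 without the male) from P7 to P21. At the 4 steps in order it gave 5 to 55 (31 without the male P1), 0 to 2, 1 (without the male P7) to 72 (59 without the male E18.5, 30 without the male P1) and 0 to 1 genes in adventitial. In all fibroblasts the ranges were 21 (without the female E18.5, 31 without the female P1) to 314, 0 to 7, 164 (without the male P7) to 1645 (without the female P21; 542 and 540 without the female and the male E18.5) and 0 to 37 genes, and for the P7 to P21 difference 0 to 50 (48 without the female E18.5). The members called ranged from 0 to 4 and 0 to 1 in alveolar (E18.5 to P1 and P7 to P21), 0 to 1 at both of these in adventitial, and 0 to 1 in all fibroblasts from E18.5 to P1.

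The 19 results whose direction changed are given as log2 changes. In alveolar fibroblasts from P1 to P7, Limch1 was 0.078 with equal weight and ran from -0.19 to 0.12 without 1 mouse, Slc7a10 from -0.64 to 0.26 and Ces1d from -0.94 to 0.058. In alveolar hyperoxia Gpm6b was 0.042 with DESeq2 and with its size factors, 0.055 with equal weight and 0.086 by total reads, and ran from -0.17 to 0.049 without 1 mouse, and Ces1d ran from -0.42 to 0.38. In adventitial fibroblasts Gpm6b ran from -0.072 to 0.27 and Limch1 from -0.24 to 0.80 (E18.5 to P1), Limch1 from -0.63 to 0.39 and Inmt from -0.72 to 2.89 (P1 to P7), and Gpm6b from -0.40 to 0.12 (P7 to P21). From P7 to P21 Npnt was -0.33 with equal weight, -0.070 by total reads and -0.18 to 0.36 without 1 mouse. Slc7a10 was 0.088 with no sex term and -1.24 to 0.71 without 1 mouse from P7 to P21, and 0.026 by total reads and -1.42 to 1.11 in hyperoxia. In all fibroblasts Limch1 was 0.0069 with equal weight and -0.45 to 0.19 without 1 mouse (P1 to P7), and 0.0093 and -0.18 to 0.12 (P7 to P21). In their hyperoxia comparison Ces1d was 0.16 with equal weight, 0.029 by total reads and -0.63 to 0.37 without 1 mouse, and Gpm6b -0.56 to 0.0056. For the difference between classes, Inmt (P7 to P21, -1.03 in the main setting) was 0.13 with equal weight, and Npnt (hyperoxia) 0.062 with equal weight and -0.58 to 0.086 without 1 mouse.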
